A study of Mus musculus with 10 samples.

Results

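The genes described here are 37 endothelial marker and adhesion genes, listed by name and read in mouse left ventricle after pressure overload. A probe of the array was taken for a gene when the symbols that the deposited table gives for it included that gene. Of the 37 genes, 36 had a probe and Ly6c1 had none, which gave 42 probes among the 26423 on the array. Of these, 39 probes of 33 genes passed the filter on low intensity, and the probes of Apln, Selp and Plvap were removed by it. A further 3 kept probes, those of Aplnr and Erg and one of the Clec14a probes, were found by the scanner software on no array and have no usable level. The results therefore rest on 36 probes of 31 genes, 35 of them found on all 10 arrays. The probe of Sele was found on all 5 TAB arrays but on only 3 of the 5 sham arrays.

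The animals were male C57BL/6J mice, 8 weeks old, with no other treatment named, that underwent either transverse aortic banding (TAB), which narrows the aorta and raises the pressure against which the left ventricle works, or a sham operation. Each operation was sampled once on days 3, 5, 7, 14 and then 28, which makes 5 samples per operation and 10 in all. How many mice a sample held is not given in the sources used here. A ratio on a single day thus has no replicate check, and the average TAB effect was tested with the 5 days as its replicates, with a spread that includes time after surgery and array noise. The median raw intensity was 34 to 57 per array, and 40.2% to 47.3% of the spots of an array were not found. The TAB array of day 3 had both the lowest median and the most spots not found. The cardiomyocyte markers were found in every sample, with 12 of 12 genes having a probe found on the arrays.

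Endothelial cells line all blood vessels of the heart and are held together by junction proteins such as VE-cadherin, the product of Cdh5. When they are activated by inflammatory cytokines they display adhesion molecules in sequence. Selectins slow passing leukocytes, and Icam1 and Vcam1, which bind leukocyte integrins, then hold them to the vessel wall. Several members are not restricted to the endothelium, since Icam1, Vcam1 and Cav1 are also made by fibroblasts, smooth muscle cells or leukocytes. In a whole-tissue sample, fewer cells of a type cannot be told apart from less RNA per cell.

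The leukocyte adhesion genes Sele (E-selectin), Vcam1 and Icam1 had 3 of the 4 highest mean log2 ratios of TAB over sham among the members. Sele and Icam1 are textbook targets of the transcription factor NF-kappaB, so the DNA before their start sites is shown. The sequences are the plus strand of RefSeq promoters, build GRCm38.p6, and cover the 250 bases before the start site, at chr1:164047984-164048233 for Sele and chr9:21015690-21015939 for Icam1. Capitals mark a match to the kappaB-like letters GGANNTTCC, which begins 145 bases before the start site in Sele and 153 bases before it in Icam1.
Sele: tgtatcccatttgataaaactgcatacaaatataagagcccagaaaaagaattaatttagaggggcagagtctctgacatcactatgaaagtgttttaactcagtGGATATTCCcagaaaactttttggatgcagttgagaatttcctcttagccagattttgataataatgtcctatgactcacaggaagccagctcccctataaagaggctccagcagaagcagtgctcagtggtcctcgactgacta
Icam1: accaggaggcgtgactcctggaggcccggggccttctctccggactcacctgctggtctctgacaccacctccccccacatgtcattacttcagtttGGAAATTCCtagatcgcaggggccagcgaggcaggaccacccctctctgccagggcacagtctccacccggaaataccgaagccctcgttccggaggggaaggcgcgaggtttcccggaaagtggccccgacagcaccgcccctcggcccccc
These letters, and the core AGGAAG of sites of the ETS family of factors, which includes Erg, were chosen after the sequences had been seen, so the matches are a description and not a test. Both strands were searched in windows from 250 bases before to 50 bases after the start site, and the letters of these motifs can overlap but did not in the sequences shown. The table of promoters held 18 of the 37 genes. Vcam1 and Acvrl1 were not among them, so their promoters were not searched. The kappaB-like letters occurred in 3 of the 18 (Icam1, Sele and Tspan7), which is 3 of their 24 windows (12.5%), against 4.26% of the 32851 windows of all genes. The ETS core occurred in 15 of the 24 windows (62.5%), against 35.4% of all windows.

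Averaged over the days, 4 of the 36 found probes rose in TAB and none fell, at an adjusted p under 0.05 in limma with day as a block. The 4 were Sele, Vcam1, Acvrl1 and Cav1. They make 11.1% of the member probes, against 8.88% of all 18074 tested probes that were higher in TAB and 7.64% that were lower, so the share called was near the background. All 5 TAB values lay above all 5 sham values for 7 member probes (19.4%), against 9.57% of all tested probes. Besides the 4 genes above, these were single probes of Icam1, Clec14a and Mmrn2. No member probe had all TAB values below all sham values, against 7.59% of the tested probes. Most members differed little. The mean over the days lay within 0.5 of 0 for 31 of the 36 probes, and it was above 0 for 31 of the 36 (86.1%), against 47.0% of all tested probes. The median over the member probes was 0.20, against -0.03 over all tested probes.

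**Figure D1:**
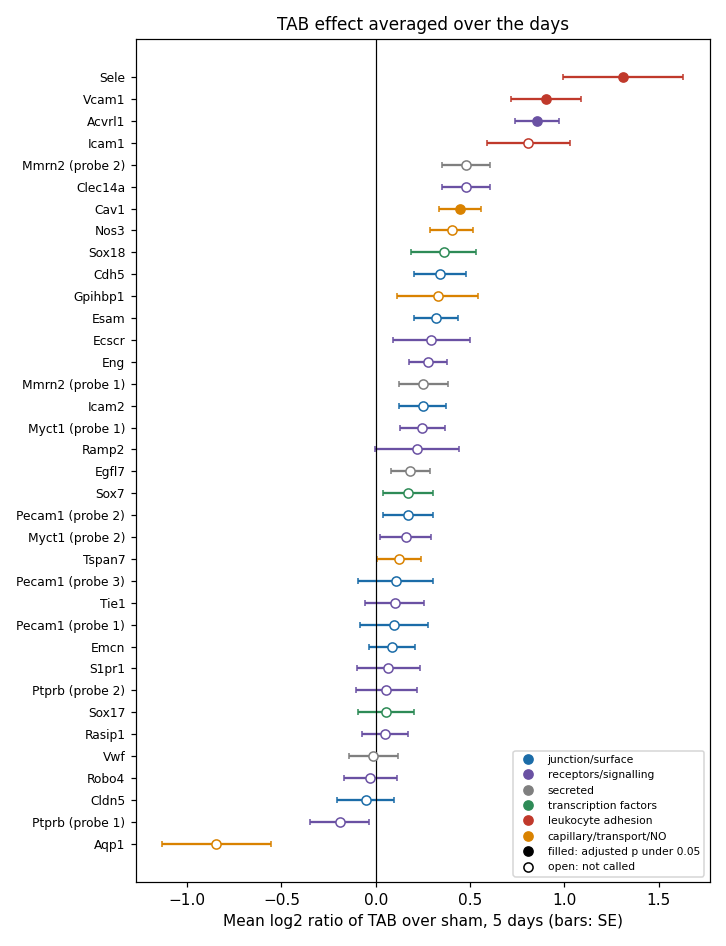
Mean log2 ratio of TAB over sham for each of the 36 found member probes, averaged over the 5 days (x axis, log2 units), with bars for 1 standard error from limma (n = 5 days) and colours for the role of the gene. Filled points mark the 4 probes with an adjusted p under 0.05 (Sele, Vcam1, Acvrl1 and Cav1), and Aqp1 is the lowest point at -0.84.

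Among the leukocyte adhesion genes, Sele and Vcam1 rose, Icam1 narrowly missed the threshold and Selp had no level. Sele, the selectin that endothelial cells make on activation, had log2 normalized intensities of 6.23, 6.85, 6.46, 5.65 and 5.42 in the TAB samples, in the order of the days from 3 to 28. The sham samples, in the same order as everywhere below, had 5.22, 4.14, 4.95, 5.09 and 4.66. The lowest TAB value was that of day 28 and still lay above the highest sham value, that of day 3. These levels are near the limit of the array. The raw intensities were 55, 119, 86, 46 and 51 in TAB and 44, 16, 23, 35 and 38 in sham, and the spots not found were those of the sham samples of days 5 and 7. Averaged over the days, the log2 ratio of Sele was 1.31 (SE 0.32, n = 5 days) with an adjusted p of 0.0425 from limma, and it was 1.02, 2.71, 1.51, 0.56 and 0.76 on the days in order. A ratio more than 2 SDs of its day away from 0 is called differentially expressed (DE) below. Sele was DE on day 5, as were 3.96% of the tested probes in this direction. The sham spot behind this ratio was among those not found. With 50 added to the intensities before the log2 step, the mean log2 ratio of Sele was 0.63.

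Vcam1, the ligand of leukocyte integrins that hold cells firmly, was found on every array. Its TAB values were 11.36, 11.80, 11.86, 11.28 and 11.11, and its sham values were 10.48, 10.38, 10.59, 10.63 and 10.80. The groups did not overlap, and the TAB samples of days 5 and 7 were the highest. The average log2 ratio was 0.90 (SE 0.19), a 1.87-fold difference with an adjusted p of 0.0310 from limma, and it was 0.87, 1.43, 1.27, 0.64 and 0.30 on the days in order.

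Icam1, which binds the integrins of neutrophils and monocytes, was not called. Its TAB values were 7.15, 7.76, 7.50, 7.08 and 6.79, against 6.36, 6.39, 6.13, 6.75 and 6.61 in sham. The lowest TAB value exceeded the highest sham value by little, and days 5 and 7 had the largest ratios, 1.36 and 1.38. The average log2 ratio was 0.81 (SE 0.22), and the adjusted p from limma was 0.0543. Leaving out day 28 brought it to 0.0441 and leaving out day 5 to 0.148, so the call depends on which days are averaged. With all days kept it was also called higher in 7 of the other processing settings, at adjusted p-values down to 0.0148 from limma. Selp, the selectin kept in storage granules of endothelial cells and platelets, had raw intensities of 0 to 10 in 9 samples and of 24 in the TAB sample of day 5, where alone its spot was found.

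The ratios of the adhesion genes were larger on the early days than on the late ones. Averaged over days 3, 5 and 7 and over days 14 and 28, the log2 ratios were 1.74 and 0.66 for Sele, 1.19 and 0.47 for Vcam1 and 1.18 and 0.26 for Icam1. The early mean of Sele includes days 5 and 7, on which its sham spot was not found, so its size is uncertain. The test of early against late days called 0.0% of the 18074 probes, with a lowest adjusted p of 0.193 from limma and 1995 probes at an unadjusted p under 0.05. For Icam1 the early minus late difference was 0.92 (SE 0.26) and for Vcam1 it was 0.72 (SE 0.26), with adjusted p-values of 0.408 and 0.435 from limma, and for Sele it was 1.08 (SE 0.53, adjusted p = 0.503 from limma). No difference between stages passed the test.

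**Figure D2:**
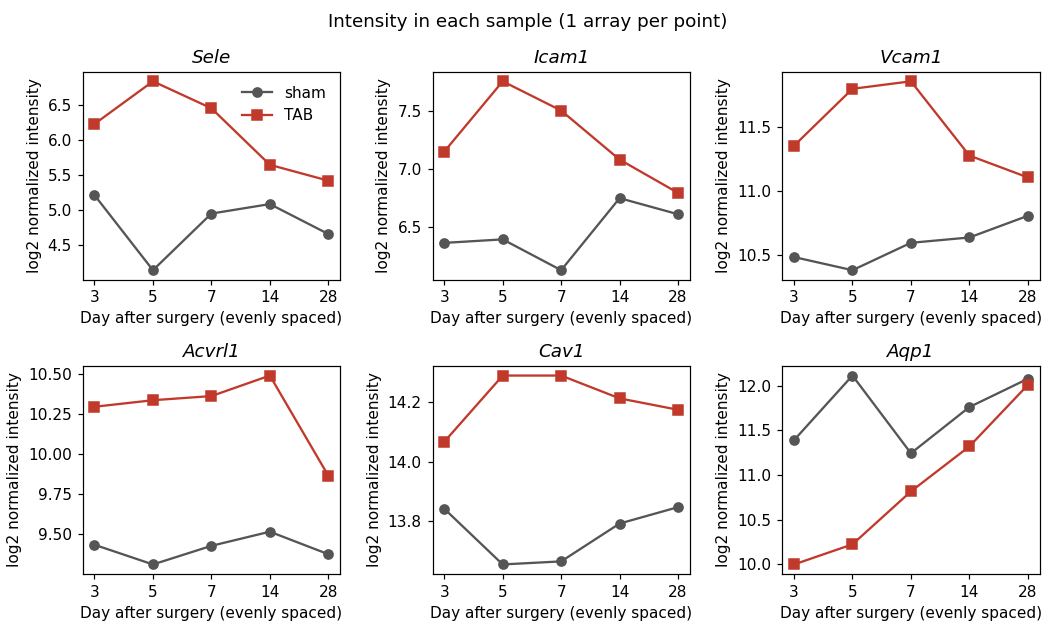
log2 normalized intensity of Sele, Icam1, Vcam1, Acvrl1, Cav1 and Aqp1 (y axis, a scale of its own in each panel that does not start at 0) by day after surgery (x axis, days evenly spaced), 1 array per point, squares for TAB and circles for sham. The TAB points lie above every sham point in all panels but that of Aqp1, where the TAB values climb from 9.996 on day 3 to 12.01 on day 28.

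Most markers of macrophages and other leukocytes were higher in the same samples, but not those of lymphocytes. For this list and those that follow, the background is 8.88% of all tested probes called higher and 7.64% called lower. Of 15 found probes of 18 macrophage and leukocyte markers, 12 rose and 1, Cd3e of T cells, fell (mean log2 ratio -0.59). Cd79a of B cells had -0.49 (adjusted p = 0.0568 from limma), with all TAB values below all sham values. The median log2 ratio of this list was 1.23, 2.07, 1.68, 0.87 and 0.71 on the days in order, against 0.87, 1.43, 1.38, 0.56 and 0.30 for the probes of Icam1, Vcam1 and Sele. The summed intensity of the list was 7206 to 8933 in the sham samples and 11799 to 30069 in the TAB samples. Cd68, a lysosomal protein of macrophages, averaged 2.01 in log2 ratio (adjusted p of 0.0238 from limma), the probe of S100a8 was found on no array, and that of Fcgr1 was found on 2 TAB arrays but removed by the filter. Of 10 found probes of 11 fibroblast markers, 6 rose and none fell, with summed intensities of 48195 to 52917 in sham and 60245 to 83413 in TAB. Col1a2, a collagen chain, had a mean log2 ratio of 3.49, while the probe of Col1a1 was found on no array and that of Pdgfra, found on 2 sham arrays, was removed by the filter. The part of leukocytes or fibroblasts in the adhesion gene values was not tested.

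The leukocyte partners of the adhesion molecules were also listed. Of 11 found probes, 5 rose and none fell. Itgb2, the integrin chain shared by the partners of Icam1, averaged a log2 ratio of 1.75 (SE 0.25), with an adjusted p of 0.0178 from limma. Selplg, which carries the ligand of the selectins, had 1.44, and Cd44, a receptor of hyaluronan that selectins also bind, was found on no sham array and was at least 4.25-fold higher in TAB. This bound sets the TAB mean against the lowest intensity of found spots on each sham array, or the probe's own value where that was higher. The remaining 2 that rose were the probe of Itgam and one of Itgb1 (0.45). The other Itgb1 probe had 0.17 (adjusted p = 0.452 from limma). Itga4, the chain that pairs with Itgb1 to bind Vcam1, was found on no array.

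Of 11 found probes for 12 genes of inflammatory cytokines and NF-kappaB, 3 rose and none fell. Il6 was found on 3 TAB arrays and no sham array and was at least 4.37-fold higher, and the NF-kappaB subunits Relb and Nfkb2 had mean log2 ratios of 0.73 and 0.64. The subunits Nfkb1 and Rela had -0.64 (adjusted p = 0.0709 from limma) and 0.32, and Nfkbia, the inhibitor that NF-kappaB induces, had -0.32, none of them called. Tnf, a cytokine that induces adhesion molecules, had a mean log2 ratio of -0.04 (SE 0.12). Il1b, another such cytokine, did not pass the test (adjusted p = 0.221 from limma). Its raw intensity on day 5 was 313 in TAB and 4 in sham, where the spot was not found, and its log2 ratios on the other days were 0.12 to 1.22.

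**Figure D3:**
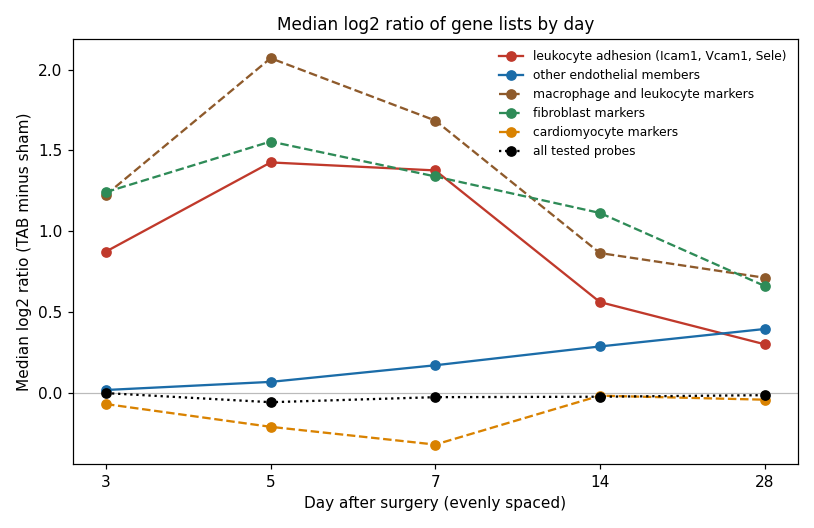
Median log2 ratio of TAB over sham (y axis) by day after surgery (x axis, days evenly spaced) for the 3 found adhesion probes, the other 33 member probes, markers of leukocytes, fibroblasts and cardiomyocytes, and all 18074 tested probes. The adhesion genes peak on day 5 at 1.43 and end at 0.30, and the other members go from 0.02 on day 3 to 0.40 on day 28.

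Apart from the adhesion genes, Acvrl1 and Cav1 rose. Acvrl1, also called ALK1, is an endothelial receptor for bone morphogenetic proteins. It had TAB values of 10.30, 10.34, 10.36, 10.49 and 9.87 and sham values of 9.44, 9.31, 9.43, 9.52 and 9.38. The sham samples lay close together, and the TAB sample of day 28 was the lowest of the TAB values but still above all of them. Over the days the log2 ratio averaged 0.86 (SE 0.12), with an adjusted p of 0.0164 from limma and single ratios of 0.86, 1.02, 0.93, 0.97 and 0.49 on the days in order. This was the lowest adjusted p among the members, and the ratio of day 14 lay among those of the early days. Eng, endoglin, the co-receptor that works with Acvrl1, averaged 0.28 (SE 0.10), with an adjusted p of 0.109 from limma, and was higher in TAB on all 5 days.

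Cav1, the coat protein of caveolae, the membrane pits that are abundant in capillary endothelium, had 14.07, 14.29, 14.29, 14.21 and 14.18 in TAB and 13.84, 13.65, 13.67, 13.79 and 13.85 in sham. The difference was small but larger than the spread within either group, and no TAB value reached down to the sham values. Its log2 ratio averaged 0.45 (SE 0.11), with an adjusted p of 0.0438 from limma. Nos3, the endothelial nitric oxide synthase, which Cav1 binds, averaged 0.40 (SE 0.11), with single ratios of 0.19 to 0.70 and an adjusted p of 0.0609 from limma.

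The calls of these genes changed when days were left out. The share of all tested probes called is given only for the fit with all days. Without any 1 day, 0 to 3 member probes were called, with 0 after leaving out day 3, 5 or 7, 1 after leaving out day 14 and 3 after leaving out day 28. In these fits the mean log2 ratio of Acvrl1 moved only between 0.81 and 0.95 and its adjusted p from limma between 0.0164 and 0.0734. Vcam1 kept its call only without day 28, with mean log2 ratios of 0.77 to 1.05. Sele lost its call in each of the 5 fits, with mean log2 ratios of 0.96 to 1.499, and so did Cav1, with 0.40 to 0.50.

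Aqp1, the water channel of capillary endothelium and red cells, was the member with the lowest mean log2 ratio. Its TAB values were 9.996, 10.22, 10.81, 11.32 and 12.01, against 11.39, 12.11, 11.24, 11.76 and 12.08 in sham. TAB was below sham on each of the 5 days, with log2 ratios of -1.39, -1.89, -0.43, -0.44 and -0.07 in order, and the TAB sample of day 28 lay above 3 of the sham samples. The mean was -0.84 (SE 0.29, adjusted p = 0.0927 from limma), so it was not called. It was called lower with probes not found on all arrays left out (adjusted p = 0.0326 from limma). On day 5 it was DE by the 2 SD rule, as were 1.5% of tested probes in this direction. In all, 4 member values were DE on a day, those of Sele and Aqp1 on day 5 and one each of Aplnr and Erg, whose spots were found on no array. Aplnr, the receptor of apelin, had raw intensities of 15, 11, 13, 3 and 15 in TAB and 9, 17, 5, 13 and 11 in sham, and its log2 ratio on day 14 was -1.90, lower as were 2.12% of tested probes. Erg, an ETS factor of endothelial cells, had log2 values of 2.37, 1.43, 3.24, 4.26 and 3.65 in TAB and 2.34, 2.19, 3.54, 2.99 and 2.24 in sham, and its ratio on day 28 was 1.41, higher as were 3.13%. These values give no level of either gene. No member was DE on day 3 or day 7, when 3.1% and 3.88% of tested probes were DE and higher and 2.03% and 1.53% were DE and lower. None was DE and higher on day 14 (3.26% of tested probes) or DE and lower on day 28 (2.26%).

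Cd36, a fatty acid transporter of capillary endothelium and cardiomyocytes that is not a member, had probes that differed. One fell (mean log2 ratio -0.95, adjusted p = 0.0196 from limma), and the other had -0.28 (adjusted p = 0.113). Gpihbp1, which carries lipoprotein lipase to the capillary surface, had a mean log2 ratio of 0.33 with single days between -0.37 and 1.14. Tspan7, a membrane protein of the tetraspanin family, had 0.12. Plvap, which forms the diaphragms of fenestrae and caveolae, had raw intensities of -14 to -1 in 9 samples and of 5220 in the TAB sample of day 3.

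The remaining 30 probes of 25 genes, which include the defining markers of the endothelium, were not called in either direction. They are what is left after the adhesion genes, Acvrl1, Cav1 and Aqp1 were set aside with their values known, so they are described and not tested as a group. Their mean log2 ratios lay between -0.19 and 0.48 (SE 0.10 to 0.22), and the lowest adjusted p was 0.0515 from limma. Clec14a, Mmrn2, Nos3, Esam and Eng were called higher under some other settings. The 95% confidence intervals of the single probes reached from -0.57 at the lowest to 0.85 at the highest.

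Among junction and surface markers, Cdh5 had 10.89, 10.39, 10.61, 11.27 and 11.19 in TAB and 10.54, 10.47, 10.37, 10.68 and 10.57 in sham. The TAB samples of days 3, 14 and 28 lay above every sham sample and those of days 5 and 7 among them, and the log2 ratio averaged 0.34 (SE 0.14), with an adjusted p of 0.133 from limma. Pecam1, an adhesion protein at endothelial contacts, had 3 probes, which gave mean log2 ratios of 0.10, 0.17 and 0.11 and were all highest on day 28, at 0.72, 0.65 and 0.79. Esam, an adhesion molecule of tight junctions, had 0.32. Icam2, the adhesion molecule that endothelial cells carry without activation, had 0.25 (SE 0.13). Emcn, a sialomucin of capillaries and veins, had 0.09, and Cldn5, the claudin of endothelial tight junctions, had -0.05 (SE 0.15). None of the 8 probes of these 6 genes was called.

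Of the receptors and signalling genes, Tie1, a receptor tyrosine kinase, had -0.14 and -0.17 on days 3 and 5 and 0.32 and 0.62 on days 14 and 28. Ptprb, the phosphatase VE-PTP, which acts on VE-cadherin and the angiopoietin receptor, had mean log2 ratios of -0.19 and 0.06 on its probes. Its first probe had TAB values of 9.96, 9.93, 10.27, 10.77 and 10.86, and sham values of 10.34, 10.64, 10.38, 10.67 and 10.71. The TAB samples of days 3, 5 and 7 were below every sham sample, and those of days 14 and 28 above every one. S1pr1, the endothelial receptor for sphingosine-1-phosphate, had a mean of 0.07, Robo4 of -0.03, and Ramp2, part of the adrenomedullin receptor, of 0.22 with 1.05 on day 14. Rasip1, an effector of Rap and Ras in vessel formation, had 0.05.

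Clec14a, a lectin-like receptor of endothelial cells, and Mmrn2, the matrix protein that binds it, each had a probe without overlap between the groups. Clec14a had 8.28, 8.27, 8.26, 7.95 and 7.89 in TAB and 7.54, 7.62, 7.67, 7.77 and 7.65 in sham, and its log2 ratio averaged 0.48 (SE 0.13), with an adjusted p of 0.0524 from limma. The early TAB samples were the highest. Mmrn2 had 9.38, 9.41, 9.24, 9.61 and 9.65 in TAB and 9.01, 9.02, 9.07, 8.95 and 8.85 in sham on one probe. Here the late TAB samples were the highest, and the log2 ratio averaged 0.48 (SE 0.13), with an adjusted p of 0.0515 from limma. The other Mmrn2 probe had a mean of 0.25 (adjusted p = 0.223), so the probes of this gene differed in size but not in direction.

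Ecscr, a surface protein of endothelial cells, had a mean log2 ratio of 0.29, from 1.06 on day 5 to -0.20 on day 14. Myct1 had 0.25 and 0.16 on its probes. Of the secreted proteins, Egfl7 had 0.18, and Vwf, the clotting factor stored beside P-selectin, had -0.01 (SE 0.13). The transcription factors of the SoxF family, which act in vessel formation, had mean log2 ratios of 0.36 for Sox18, 0.17 for Sox7 and 0.05 for Sox17. None of these was called.

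**Figure D4:**
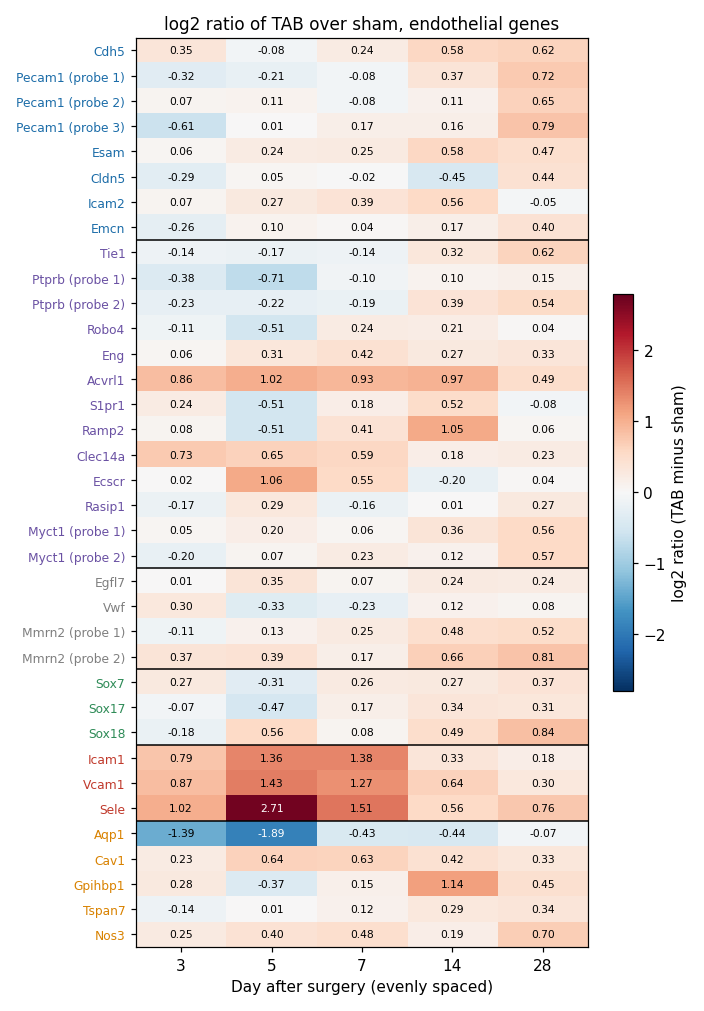
log2 ratio of TAB over sham for each found member probe (rows, grouped by role, with several probes of a gene numbered in the order of the array table) on each day after surgery (columns), as colour and printed value. The rows of Icam1, Vcam1 and Sele hold the highest values on days 5 and 7, and of the 30 rows other than these, Acvrl1, Cav1 and Aqp1, 16 are above 0 on day 3 and 28 on day 28.

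The number of the 36 member probes with a ratio above 0 was 21, 23, 27, 33 and 33 on the days in order, against 49.97% of all tested probes on day 3 and 46.6% to 48.8% on the other days. Among the 30 probes without a call set apart above, the median log2 ratio was 0.02, 0.06, 0.17, 0.28 and 0.42 on the days in order, with 16 of the 30 above 0 on day 3 and 28 on day 28. The late mean exceeded the early mean for 28 of these 30 probes, and for 29 of all 36, against 50.5% of all tested probes. No single probe passed the test of early against late days (lowest adjusted p among the found member probes 0.402 from limma). An unadjusted p under 0.05 was reached by 5 of the 36 (13.9%), against 11.04% of all tested probes. Of these 5, 3 had the higher ratio late (single probes of Pecam1, Tie1 and Ptprb), and Icam1 and Vcam1 had it early. The direction on these days rests on 1 TAB and 1 sham sample each, and all probes of a day share those samples, so the count of probes does not measure how sure the difference is. The sham sample of day 28 had the lowest mean log2 intensity of the 6 junction and surface genes of the 10 samples (9.75), and the TAB sample of day 14 had the highest (10.34).

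**Figure D5:**
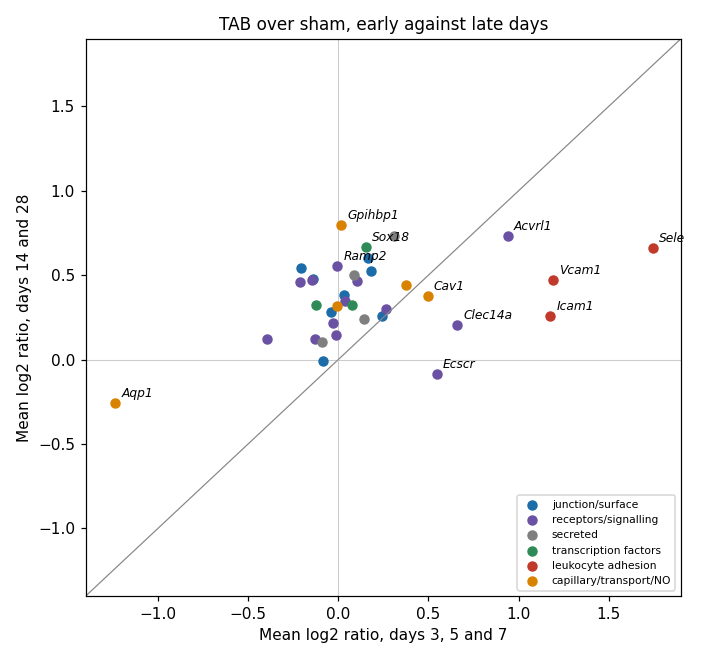
Mean log2 ratio of TAB over sham on days 14 and 28 (y axis) against that on days 3, 5 and 7 (x axis) for the 36 found member probes, 1 point per probe, with the line of equal values. The adhesion genes, Acvrl1, Clec14a, Ecscr and Cav1 lie below the line, and 29 of the 36 points lie above it.

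The same ratios were also taken relative to the mean log2 intensity of the 6 junction and surface genes of each array, a setting chosen after the values had been seen. On this scale Acvrl1 was higher (mean difference 0.68, adjusted p = 0.0374 from limma), with 0.06 left on day 28. Vcam1, Sele and Cav1 were no longer called, with 0.73, 1.13 and 0.27 (adjusted p-values of 0.0740, 0.0629 and 0.230 from limma). Aqp1 was lower, at -1.02 (adjusted p = 0.0336 from limma).

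Other endothelial genes, not members, were read for comparison. Over all tested probes, 8.88% were called higher in TAB and 7.64% lower, which is the background for the counts below. Of 26 found probes of 25 listed general endothelial genes, 2 rose, Cd34 (1.02) and Mcam (0.85), and 1 fell, the Cd36 probe above. Cd34 is also carried by fibroblasts and Mcam by pericytes and smooth muscle cells. The receptors of vascular endothelial growth factor Kdr and Flt1 had mean log2 ratios of 0.21 and -0.14, and Tek, the angiopoietin receptor, had 0.07. The median of the list was 0.13. Of the 8 probes of arterial genes, Unc5b (1.08) rose and none fell, and of the 2 probes of venous genes none was called. Of the 6 probes of lymphatic genes, Pdpn (1.76), which fibroblasts also make, rose, and Prox1 (-0.59), the transcription factor that specifies lymphatic endothelium, fell. Of the 9 found probes of smooth muscle and pericyte genes, 3 rose, with Tagln at least 4.31-fold higher, and none fell. The directions in this list were mixed, with mean log2 ratios down to -0.72. All TAB values lay below all sham values for 1 probe and above for 3, against 7.59% and 9.57% of all tested probes. Of the 13 probes of cardiomyocyte genes, none rose and 1 fell, a probe of Mb (myoglobin) with a mean log2 ratio of -0.68. The summed intensity of this list was 338838 to 360454 in TAB and 363253 to 387985 in sham. Raw intensities of Myl2 were 61879 to 65473, at or near the highest value of each array, so its ratios can show little. The other Mb probe had -0.04 (adjusted p = 0.840 from limma).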

How the data were processed

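Per the labels, Cy5-labelled RNA of each left ventricle sample was hybridized to a Mouse Whole Genome OneArray v2, scanned on an Agilent G2505C scanner and read with GenePix 4.1. The authors deposited, for 26423 probes and 10 samples, a raw intensity from which a background had been subtracted by a method not given in the sources used here, with no scaling between arrays. The deposited detection p-value was not used. The deposited flag, a score whose meaning is not given, was read as a spot not found where negative. The sample labelled day 14 by its title and day 15 by another TAB label was used as day 14.

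All arrays were brought to the same median. A scaled intensity under 1 in any sample removed a probe (6447 probes), and the 19976 that were kept underwent quantile normalization over the 10 samples, with the median at each rank, and a log2 step. The 18074 kept probes with a symbol were tested one by one with limma (lmFit and eBayes, day as a block, Benjamini-Hochberg adjustment), not 1 probe per gene by its largest ratios, because that rule selects on the outcome. Early days (3, 5 and 7) were set against late days (14 and 28) by an interaction. The SDs for DE calls were taken over all kept probes of a day, and a call needed a log2 ratio of 1.75, 1.87, 1.71, 1.46 and 1.38 on days 3, 5, 7, 14 and 28. Members found on no array were left out of the counts, except the counts of DE calls, which cover all kept member probes.

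The samples were paired by the number of days after surgery in the labels, which name no shared day of surgery. The deviations from the group means within a day, TAB against sham, correlated across probes with r = 0.112, 0.00148, 0.0466, 0.0164 and 0.0163 on the 5 days. Members that were called or DE on a day were given in full. Icam1, Clec14a, Mmrn2, Cdh5 and Ptprb were given in full after their values were seen, as were the genes of other lists beyond the 3 largest called. The members and all gene lists were chosen with earlier results of these data known. The scripts were tested on simulated data. Alternatives changed the scaling, offset, filter, probe choice, block or variance model, or left out a day. Tools were R 4.3.3 with limma 3.58.1, and Python 3.11.15 with numpy 2.4.6, pandas 2.3.3 and matplotlib 3.10.9.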

Additional observations from a re-analysis of the deposited data

Results flagged for a closer look

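Of 72 groups of 5 values tested for a sample far from the others, 2 stood out, and chance alone gives about 1 in 20. Pecam1 probe 3 had 8.40 on the log2 scale in the TAB sample of day 3, against 8.93 to 9.14 in the other TAB samples. Icam2 had 9.44 in the TAB sample of day 14, against 9.16 to 9.21 in the other TAB samples. The probes that the filter removed also held a signal in single samples. Plvap had a raw intensity of 5220 in the TAB sample of day 3 and of -14 to -1 in the other 9 samples, and Selp had 24 in the TAB sample of day 5 and 0 to 10 elsewhere. No explanation of these values was tested.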

How the results depend on the processing

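The number of member probes called higher was 4, and it was 8 with median scaling only or with the lowest tertile of probes left out, 9 with quantile normalization within each operation or with trend and robust variances, 10 with 50 added before the log2 step, 7 with probes not found on all arrays left out, and 1 with probes below 1 set to 1 or relative to the junction genes. Without the day as a block (no replicate block) it was 7. Leaving out 1 day gave 0 to 3. The share of all tested probes is given for the main setting only (8.88% higher and 7.64% lower). The counts of members under other settings therefore have no background beside them. With all days kept, Icam1 was called in 7 of the settings run, one Clec14a and one Mmrn2 probe in 8 each, Nos3 in 6, Esam in 3 and Eng in 2. Sele lost its call with median scaling only (adjusted p = 0.0571 from limma), and Sele, Vcam1 and Cav1 lost theirs with probes below 1 set to 1. Sele was not tested where probes not found on all arrays were left out. The number called lower was 0, and 1 (Aqp1) with 50 added, with either stricter filter or relative to the junction genes. The early against late test called 0 members in all settings run. Member probes with TAB above all sham values numbered 7, and 12 with median scaling only or within each operation. The share of all tested probes, 9.57%, is given for the main setting only, so the 12 cannot be set against a background. DE calls numbered 4, and 18 at an absolute log2 ratio of at least 1, 0 at 3 SDs, 2 with median scaling only and 11 with 50 added. The shares of all tested probes given above are for the 2 SD rule in the main setting only. The other DE counts thus have no background beside them. The cause of these differences was not tested.

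Mean log2 ratios near 0 changed sign. With median scaling only they were 0.0632 for Cldn5, 0.0829 for Robo4 and 0.0970 for Vwf, and within each operation 0.0408, 0.0725 and 0.0821. With 1 day left out they ranged from -0.176 to 0.0450 for Cldn5, -0.0944 to 0.0911 for Robo4, -0.0903 to 0.0674 for Vwf, -0.0618 to 0.200 for Pecam1 probe 1, -0.0661 to 0.283 for Pecam1 probe 3, -0.0296 to 0.168 for Tie1, -0.0644 to 0.128 for Ptprb probe 2, -0.0446 to 0.213 for S1pr1, -0.0116 to 0.105 for Rasip1 and -0.0167 to 0.187 for Sox17. No called member changed direction in any setting run. The number of arrays limits every value, with 1 per operation and day, and an added constant shrinks the ratios of dim probes such as Sele more than those of bright ones by construction.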
